A study of Mus musculus with 8 samples.

Results

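Type I interferon response genes were followed in RNA sequencing libraries of whole mouse eyes. The 9 genes Irf7, Irf9, Stat2, Ifit1, Ifit3, Isg15, Oasl2, Rtp4 and Bst2 were taken by symbol from a deposited count table of 32517 usable gene symbols, and all 9 were found. The eyes came from male mice, 12 weeks old, housed with equal 12 h phases of light and dark. The cKO group (Cre-positive) lacked Nr3c1, which encodes the glucocorticoid receptor, in the retina alone, and the WT group was Cre-negative. The Cre driver is not given in the sources used here. Each genotype has 1 library at zeitgeber times ZT3, ZT9, ZT15 and ZT21, hours counted from lights-on, and each library pools the RNA of 3 mice. ZT15 and ZT21 fall in the dark and ZT3 and ZT9 in the light. The study asked whether loss of the receptor in the retina alters rhythmic gene expression under light and dark.

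Type I interferons are secreted proteins that bind the receptor pair Ifnar1 and Ifnar2 on nearly every cell. The kinases Jak1 and Tyk2 then phosphorylate signal transducers such as Stat2, which joins Irf9 in a complex that binds interferon-stimulated response elements (ISRE) in the promoters of target genes. The targets include antiviral effectors such as the Ifit proteins and Isg15, and Irf7, a factor that raises interferon production in turn. Without infection, most of these genes are kept at a low tonic level.

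Total counts ran from 13672717 to 20309611 in the 4 cKO libraries and from 11748995 to 15255578 in the 4 WT libraries. Nr3c1 had 32.5 to 38.2 CPM (counts scaled to the TMM-adjusted size of the library) in cKO eyes and 78.1 to 145.0 CPM in WT eyes, in the direction of the labels. The tissue field of the labels names the ciliary body, but 12 lens marker genes took 14.3 to 17.7% of the counts in cKO libraries and 10.4 to 12.8% in WT libraries, so the libraries are called whole eyes, as in the protocols. Transcripts of the mitochondrial genome took 2.08 to 6.11% in cKO libraries and 1.09 to 5.49% in WT libraries and were highest at ZT3 in both genotypes. In such bulk samples fewer cells of a type and less RNA per cell cannot be told apart. Repeat libraries of a genotype at one time were lacking, so every p-value rests on the spread between these 8 pools and not between mice. In the comparisons of dark with light, that spread includes differences between the 2 times of a phase. Differences are log2 differences of the fitted level, with a call at a Benjamini-Hochberg adjusted p of 0.05 over the 15373 genes tested in edgeR.

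Irf7 had the widest daily range of the 9 genes. It had 11.3, 7.65, 18.8 and 32.5 CPM in cKO eyes and 14, 5.05, 21.1 and 39.3 CPM in WT eyes at ZT3, ZT9, ZT15 and ZT21. Both genotypes were lowest at ZT9 and highest at ZT21, and the 4 dark libraries (18.8 to 39.3 CPM) lay above the 4 light libraries (5.05 to 14 CPM). Among all genes tested, 5.56% were highest at ZT21 in both genotypes and 4.33% lowest at ZT9 in both. The ratio of highest to lowest library was 4.25 within cKO and 7.78 within WT, on raw counts between 64 and 553.

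Irf7 averaged 27.9 ± 9.64 CPM in the dark and 9.49 ± 3.93 CPM in the light (SD, n = 4 libraries each), a log2 difference of 1.55 (SE 0.35). The adjusted p was 0.317 in edgeR and 0.00566 in DESeq2, and over 19 alternative settings it ran from 0.00566 to 0.786 with the same sign in 19. In a two-sided exact permutation test on log2 levels, p was 0.0286, which is the lowest value possible for 4 against 4 libraries. Fitted with a 24 h cosine wave in both genotypes, Irf7 had a peak-to-trough fold of 5.88 with a peak at 20 h. Its unadjusted p (1.88e-05) was the smallest of all 15373 genes in that test, although the adjusted p was 0.262 in edgeR and 1.79e-13 in DESeq2 (range over 19 alternatives 1.79e-13 to 0.736). Without both ZT9 libraries, which leaves ZT3 as the only light time, Irf7 had a dark minus light difference of 1.15. Without both ZT3 libraries, which leaves ZT9 alone, it was 2.14.

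The promoter of Irf7 is shown because Irf7 had the clearest time of day pattern. Irf7 occupies bases 141262706 to 141266481 of chromosome 7, minus strand (GENCODE M21 on GRCm38), with up to 10 exons in a transcript, and its gene model overlaps Phrf1 on the other strand. The strand setting of the counting is not given in the sources used here, so reads of the overlap cannot be assigned. Phrf1 had 42.6 to 54.1 CPM in cKO eyes and 45.1 to 56.1 CPM in WT eyes, highest at ZT3 in both. The 250 bases before the RefSeq start of Irf7 (chr7:141266425-141266674, minus strand, GRCm38.p6) hold no match to the ISRE core searched, which is GAAA, any 2 bases and GAAA, on either strand.
Irf7: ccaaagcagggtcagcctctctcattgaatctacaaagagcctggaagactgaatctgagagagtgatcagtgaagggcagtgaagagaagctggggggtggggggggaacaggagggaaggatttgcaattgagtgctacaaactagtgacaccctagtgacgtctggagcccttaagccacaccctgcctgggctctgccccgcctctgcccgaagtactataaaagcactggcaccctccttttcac

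**Figure D1:**
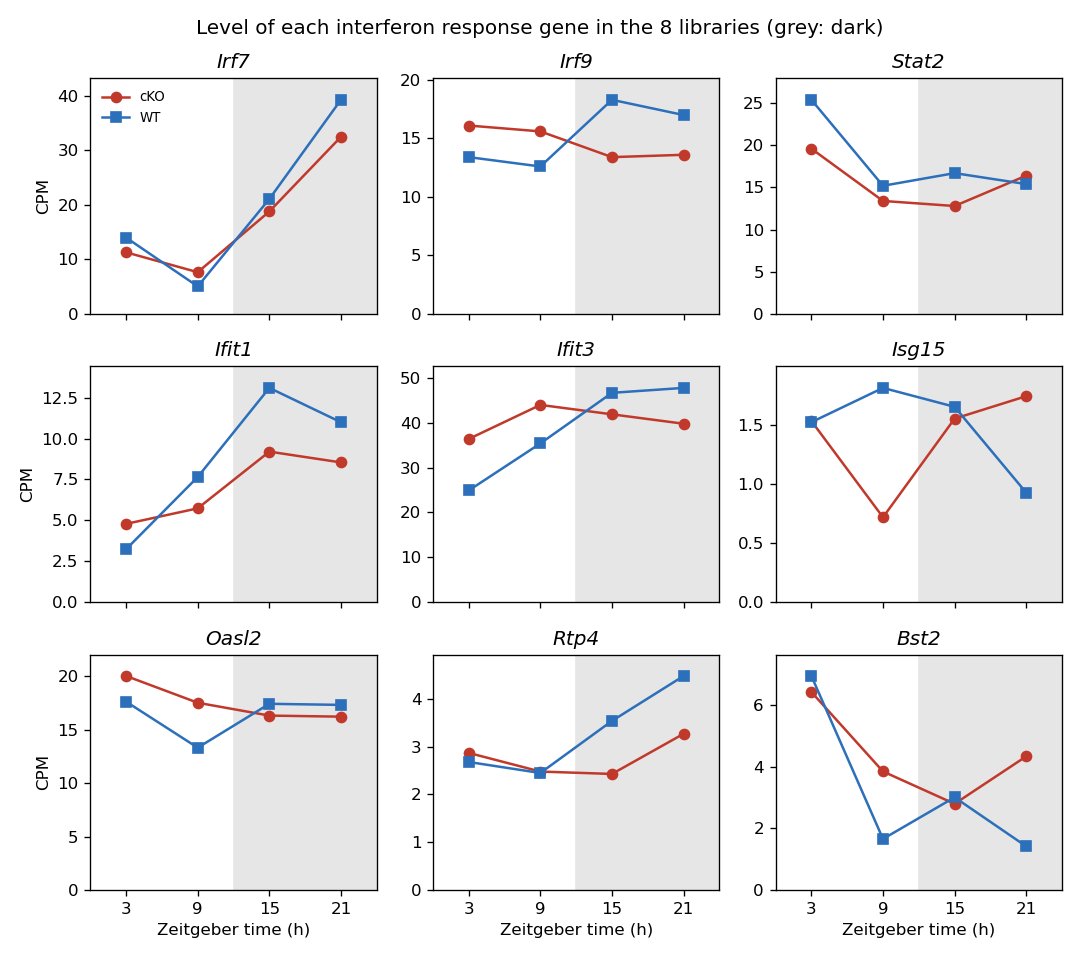
Level in CPM (vertical axes, from 0) of each of the 9 genes against zeitgeber time in h, with 1 point per library, cKO in red circles and WT in blue squares, and the dark phase in grey. Irf7 is highest at ZT21 (cKO 32.5 CPM, WT 39.3 CPM), whereas Bst2 is highest at ZT3 (cKO 6.43 CPM, WT 6.95 CPM).

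Irf9 is the DNA-binding partner of Stat2. It had 16.1, 15.6, 13.4 and 13.6 CPM in cKO eyes and 13.4, 12.6, 18.3 and 17.0 CPM in WT eyes at ZT3, ZT9, ZT15 and ZT21. Both dark libraries lay below both light libraries in cKO and above both in WT, a pattern held by 1.67% of all genes tested. The dark minus light difference was -0.23 (SE 0.15) within cKO and 0.44 (SE 0.15) within WT. The difference between these was -0.67 (SE 0.21), with an unadjusted p of 0.014 and an adjusted p of 0.876 in edgeR, so it did not pass. Its gene model on chromosome 14 (55603571 to 55610030, plus strand) overlaps Rnf31 on the same strand, where the counting may have split reads. Rnf31 had 20.7, 29.7, 28.5 and 24.8 CPM in cKO and 21.5, 31.1, 30.5 and 30.5 CPM in WT at the same times.

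Stat2, the signal transducer particular to interferon receptors of this class and their lambda relatives, had 19.6, 13.4, 12.8 and 16.4 CPM in cKO eyes and 25.4, 15.2, 16.7 and 15.4 CPM in WT eyes at ZT3, ZT9, ZT15 and ZT21. It was highest at ZT3 in both genotypes, as were 24.8% of all genes tested. Its wave had a peak-to-trough fold of 1.56 with a peak at 2.1 h (unadjusted p 0.0463, adjusted p 0.278 in edgeR). Its dark minus light difference was -0.26 (SE 0.20), and without both ZT3 libraries it was 0.12. Its gene lies on chromosome 10 (128270559 to 128292849).

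Ifit1 and Ifit3 encode proteins with tetratricopeptide repeats, and Ifit1 binds viral RNA that lacks the methylated cap of host messengers. Ifit1 had 4.78, 5.73, 9.20 and 8.54 CPM in cKO eyes and 3.23, 7.65, 13.1 and 11 CPM in WT eyes at ZT3, ZT9, ZT15 and ZT21. It was highest at ZT15 in both genotypes, as were 5.93% of all genes, and lowest at ZT3 in both, as were 26.9%. Its 4 dark libraries (8.54 to 13.1 CPM) lay above its 4 light libraries (3.23 to 7.65 CPM). With total counts as the only scaling, these groups overlapped and the exact permutation p was 0.0571, against 0.0286 with TMM scaling.

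The dark minus light difference of Ifit1 was 0.96 (SE 0.25), with an adjusted p of 0.317 in edgeR and 0.0597 in DESeq2 (range over 19 alternatives 0.00544 to 0.786). It was 0.75 (SE 0.37) within cKO and 1.16 (SE 0.37) within WT, and the difference between the genotypes was -0.41 (SE 0.52, adjusted p 0.957). The wave had a peak-to-trough fold of 2.89 with a peak at 16.4 h, with an adjusted p of 0.262 in edgeR and 0.0129 in DESeq2 (range 0.0129 to 1 over 19 alternatives).

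Ifit3, its neighbour on chromosome 19, had 36.4, 44.0, 41.9 and 39.8 CPM in cKO eyes and 24.9, 35.4, 46.7 and 47.8 CPM in WT eyes at the same times. It was lowest at ZT3 in both genotypes, as were 26.9% of all genes tested. In WT both dark libraries lay above both light ones, whereas in cKO they overlapped. The share of all genes with that pattern was not counted. The dark minus light difference was 0.02 (SE 0.20) within cKO and 0.65 (SE 0.20) within WT. The difference between these was -0.63 (SE 0.28, unadjusted p 0.0558, adjusted p 0.943 in edgeR). Over all 15373 genes, dark minus light had an unadjusted p under 0.05 in edgeR for 2717 within WT and 272 within cKO. Ifit3 has a near-identical copy, Ifit3b, between which reads may have been split. Ifit3b had 15.0 to 16.9 CPM in cKO and 11.4 to 16.2 CPM in WT, also lowest at ZT3 in WT.

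The promoters of both Ifit genes are shown beside each other because each holds the ISRE core, in capitals. The windows are the 250 bases before the RefSeq start (GRCm38.p6, plus strand), chr19:34640639-34640888 for Ifit1 and chr19:34583279-34583528 for Ifit3. Each holds 2 matches, which lie on the strand opposite to the gene and so appear here as the reverse complement of the core. They begin at -104 and -85 in Ifit1 and at -156 and -122 in Ifit3, where -1 is the last base before the start.
Ifit1: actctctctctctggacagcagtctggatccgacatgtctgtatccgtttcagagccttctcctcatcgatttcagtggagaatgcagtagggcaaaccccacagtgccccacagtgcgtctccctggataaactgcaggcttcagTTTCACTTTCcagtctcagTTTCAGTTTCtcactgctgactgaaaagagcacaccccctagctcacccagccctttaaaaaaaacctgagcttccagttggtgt
Ifit3: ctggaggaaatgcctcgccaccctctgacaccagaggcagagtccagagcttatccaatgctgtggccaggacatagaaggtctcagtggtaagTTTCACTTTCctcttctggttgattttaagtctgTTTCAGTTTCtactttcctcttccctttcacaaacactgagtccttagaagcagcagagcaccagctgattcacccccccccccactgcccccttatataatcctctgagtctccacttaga

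Of the 8 genes with a promoter in the RefSeq table (250 bases before to 50 after the start, GRCm38.p6), 5 held the ISRE core on either strand. They are Stat2, Ifit1, Ifit3, Isg15 and Bst2, and the core was found in 3.99% of all 27025 genes (3.44% of all 32851 windows). Read on the strand of the gene alone, it was found in 2 of the 8, and the share of all genes was not counted. The core of the gamma-activated site, TTCNNNGAA, which reads the same on both strands, was found in Bst2 alone and in 9.55% of all genes (8.3% of all windows). Irf7 and Ifit1, the pair with dark levels above all light levels, differ in whether this window holds the ISRE core. A match is a string of letters, and binding was not measured.

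Isg15 encodes a ubiquitin-like protein that is attached to other proteins. It was the least abundant of the 9 in counts, with 13 to 26 per library. It had 1.53, 0.716, 1.55 and 1.74 CPM in cKO eyes and 1.52, 1.81, 1.65 and 0.924 CPM in WT eyes at ZT3, ZT9, ZT15 and ZT21. The lowest value, at ZT9 in cKO, had an exact 95% Poisson interval of 0.381 to 1.22 CPM and the highest, at ZT9 in WT, one of 1.15 to 2.72 CPM. These intervals overlap only narrowly, and they cover counting error only. They were picked as the extremes of the 8 libraries, and their overlap is no test of a difference. Dark minus light gave 0.10 (SE 0.35), so a daily change was not detectable at this depth. Isg15 lies on chromosome 4 (156199424 to 156200818, minus strand), and its promoter window held 3 overlapping ISRE cores beginning at -78, -72 and -66.

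Oasl2, a member of the family of oligoadenylate synthetases, had the flattest course beside Irf9. It had 20, 17.5, 16.3 and 16.2 CPM in cKO eyes and 17.6, 13.3, 17.4 and 17.3 CPM in WT eyes at ZT3, ZT9, ZT15 and ZT21. The highest library was 1.5 times the lowest, against 1.45 times for Irf9. Dark minus light gave -0.02 (SE 0.14). The gene lies on chromosome 5 (114896936 to 114912234, plus strand).

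Rtp4, a chaperone that carries receptors to the cell surface and is induced by interferon, had 2.87, 2.48, 2.43 and 3.27 CPM in cKO eyes and 2.68, 2.45, 3.54 and 4.48 CPM in WT eyes at the same times. It was highest at ZT21 in both genotypes, as were Irf7 and 5.56% of all genes tested. Dark minus light gave 0.37 (SE 0.21, adjusted p 0.375 in edgeR) on 31 to 63 counts per library. Its gene model on chromosome 16 (23520291 to 23614222) spans 93932 bases and overlaps Masp1 on the other strand and Gm45338 on the same strand.

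Bst2, or tetherin, holds budding virus particles at the cell membrane. It had 6.43, 3.85, 2.80 and 4.34 CPM in cKO eyes and 6.95, 1.66, 3.01 and 1.42 CPM in WT eyes at ZT3, ZT9, ZT15 and ZT21. Both genotypes were highest at ZT3, as were 24.8% of all genes tested. The ratio of highest to lowest library was 2.3 within cKO and 4.89 within WT, on 20 to 114 counts. Dark minus light gave -0.74 (SE 0.45, adjusted p 0.391 in edgeR), and without both ZT3 libraries it was 0.12.

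Markers of macrophages and microglia were also highest at ZT3. The summed level of the 14 marker genes was 129.3, 100.8, 89.9 and 114.3 CPM in cKO and 126.3, 75.5, 84.4 and 73.8 CPM in WT at ZT3, ZT9, ZT15 and ZT21, and 0 of the 14 were at 0 in every library. Within each genotype the 4 times ranked in the same order for Bst2 and for this sum. In cKO the 8 endothelial markers kept this order too (197.6, 175.8, 149.8 and 183.3 CPM), as did the 8 neutrophil markers (12.4, 11, 10.7 and 11.4 CPM). In WT neither the endothelial (203.1, 152.8, 135 and 141.8 CPM) nor the neutrophil markers (12.5, 8.21, 9.33 and 10 CPM) kept it. Sums for endothelium, Mueller glia and neutrophils were likewise highest at ZT3 in both genotypes. Those of rods, lens, cornea, ciliary body, lymphocytes and erythroid cells were not. The leukocyte gene Ptprc was highest at ZT15 in cKO (2.8 CPM) and at ZT9 in WT (5.52 CPM). The share of mitochondrial transcripts was 6.11, 3.69, 2.08 and 3.63% in cKO and 5.49, 1.31, 1.35 and 1.09% in WT, the same order as Bst2 in WT. The 10 listed markers of plasmacytoid dendritic cells, which carry Bst2 on their surface, summed to 167.3, 264.5, 306.2 and 270.9 CPM in cKO and 144.4, 502.5, 474.3 and 537.5 CPM in WT, lowest at ZT3 in both genotypes, where Bst2 was highest. Of these 10, Cd300c was at 0 in every library, and Siglech had 1 to 1.85 CPM in cKO and 1.03 to 1.5 CPM in WT. The sum thus came mostly from other genes of the list and is not a measure of these cells alone. By genotype, 4 of the 5 listed markers that could be tested had negative estimates in cKO against WT, as had 8363 of all 15373 genes. Of these 5, 2 were lower with p under 0.05 before adjustment in edgeR (11% of all genes), and edgeR called 0 (0% of all genes). The part of these in the course of Bst2 was not tested.

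The promoter of Bst2 is shown because it holds the ISRE core and a gamma-activated site, although Bst2 did not run with the Ifit genes. The gene lies on chromosome 8 (71534255 to 71537456, minus strand), and the window is chr8:71537473-71537722 (minus strand, GRCm38.p6). The capitals mark 2 overlapping ISRE cores beginning at -130 and -124, and the gamma-activated site begins at -136.
Bst2: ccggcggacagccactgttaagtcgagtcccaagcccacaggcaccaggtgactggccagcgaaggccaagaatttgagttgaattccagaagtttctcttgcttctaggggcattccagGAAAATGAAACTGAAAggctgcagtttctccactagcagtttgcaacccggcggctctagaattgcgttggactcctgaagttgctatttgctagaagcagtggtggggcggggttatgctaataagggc

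**Figure D2:**
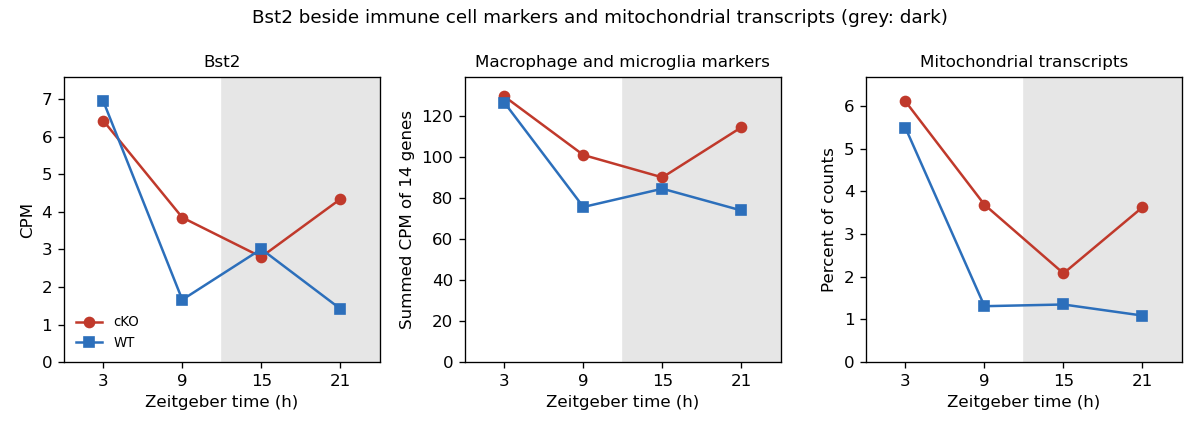
Bst2 in CPM, the summed CPM of 14 macrophage and microglia markers, and mitochondrial transcripts in percent of counts, against zeitgeber time in h, with 1 point per library (cKO red circles, WT blue squares, dark in grey). All 3 measures are highest at ZT3 in both genotypes.

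Across the 9 genes, the comparison of dark with light gave no common direction. In 2 of the 9, Irf7 and Ifit1, all 4 dark libraries lay above all 4 light libraries, which 2.68% of all genes tested did, and in 0 of the 9 they lay below, which 3.14% did. edgeR called 0 of the 9 and 0% of all genes. With p under 0.05 before adjustment, 2 of 9 were higher in the dark (5.1% of all genes) and 0 lower (10.4%), or 15.5% of all genes in both directions. DESeq2 called Irf7 alone, higher in the dark, as it did 0.458% of the 14180 genes with an adjusted p, and it called 0.882% in both directions. The median dark minus light difference was 0.10 over the 9 genes and -0.02 over all genes. The 24 h wave gave 0 of 9 calls in edgeR (0% of all genes), 3 of 9 at an unadjusted p under 0.05 (17.8% of all genes) and 2 of 9, Irf7 and Ifit1, in DESeq2 (4.48% of 13584 genes).

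Over the 36 pairs of these genes, Pearson's r of the log2 levels across 8 libraries ran from -0.79 (Stat2 and Ifit3, Spearman's rho -0.38) to 0.83 (Ifit1 and Ifit3, rho 0.79), with a median of 0.12. Irf7 was closest to Rtp4 (r 0.79, rho 0.71), and Bst2 to Stat2 (r 0.65, rho 0.67). All pairs share the same libraries and their depth and composition, so these values are a description.

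Among the other 15364 genes tested, the 10 most like Irf7 by Pearson's r over the 8 libraries were Prss56, Ppp1cc, Sec14l1, Tox4, Pkdrej, Hsph1, Foxs1, Lgalsl, Cdk2ap2 and Lhx4, with r from 0.917 to 0.964. Of these, 0 were in a fixed list of the interferon pathway. Prss56, a serine protease gene, had 1.53, 1.54, 3.31 and 3.74 CPM in cKO and 2.07, 1.18, 2.93 and 4.05 CPM in WT at ZT3, ZT9, ZT15 and ZT21. Hsph1, a heat shock chaperone, ran from 52.5 to 60.9 CPM in cKO and from 44.8 to 65.2 CPM in WT. The highest to lowest ratio was 1.16 to 1.87 in 7 of the 10, against 7.78 in Irf7, and 3.42 to 9.91 in Prss56, Pkdrej and Foxs1. In WT at ZT9, where 3 counts make 0.237 CPM, Foxs1 had 0.158 CPM and Pkdrej 0.473 CPM, so their ratios rest on very few counts.

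**Figure D3:**
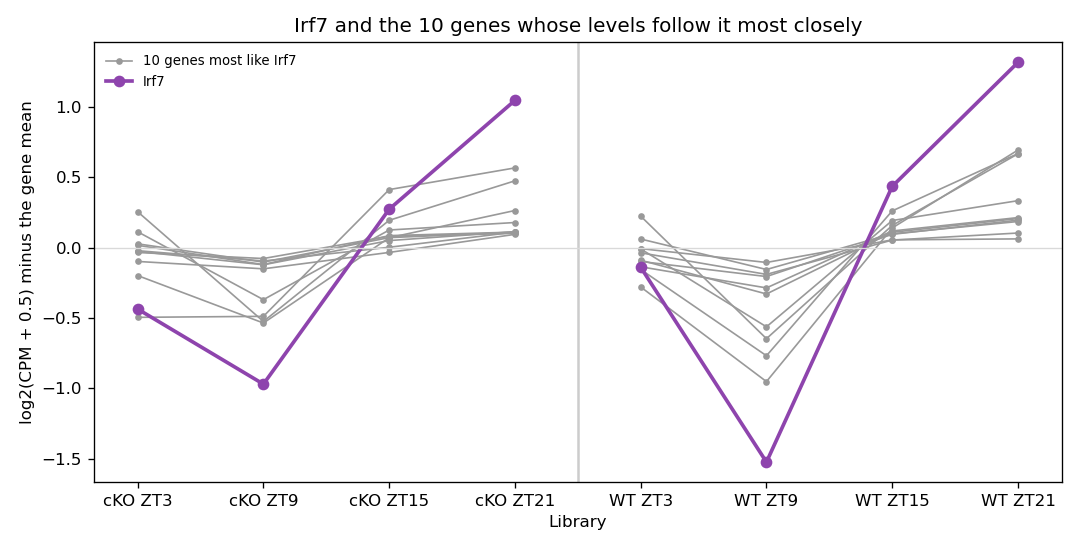
Level of Irf7 (purple) and of the 10 genes with the highest r with it (grey), as log2(CPM + 0.5) minus the mean of the gene over 8 libraries (vertical axis), in the 4 cKO and then the 4 WT libraries (horizontal axis). The ZT21 libraries are the highest of Irf7 in each genotype (cKO 32.5 CPM, WT 39.3 CPM).

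The comparison of cKO with WT gave no call among the 9 genes. Irf7 averaged 17.6 ± 11 CPM in cKO and 19.9 ± 14.5 CPM in WT, a log2 difference of -0.07 (SE 0.16). Ifit1 averaged 7.06 ± 2.14 CPM in cKO and 8.75 ± 4.30 CPM in WT (-0.22, SE 0.20), and Stat2 15.6 ± 3.12 CPM in cKO and 18.2 ± 4.87 CPM in WT (-0.21, SE 0.12). Bst2 averaged 4.36 ± 1.53 CPM in cKO eyes and 3.26 ± 2.56 CPM in WT eyes (0.57, SE 0.33, adjusted p 0.344 in edgeR; SD over n = 4 libraries each throughout). Leaving out 1 library moved this estimate to 0.28 without cKO ZT21, 0.29 without WT ZT21, 0.36 without cKO ZT9 and 0.37 without WT ZT9. It was 0.80 without cKO ZT15, 0.81 without WT ZT15, 0.89 without cKO ZT3 and 0.90 without WT ZT3. With time as a factor, the remaining library of that time holds no genotype contrast. Both values for a time thus rest on the same other times and are not separate results. The other 5 genes lay between -0.22 (Rtp4) and 0.11 (Ifit3).

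In all 9 genes the 4 cKO libraries overlapped the 4 WT libraries, whereas they lay all above in 3.73% and all below in 3.16% of all genes, and the two-sided exact permutation p ran from 0.343 to 0.971. At 4 of 4 times, cKO was higher in 0 of the 9 (15.7% of all genes) and lower in 0 (15.1%). edgeR called 0 of 9 (0% of all genes) and had 0 of 9 at an unadjusted p under 0.05, against 21.5% of all genes. DESeq2 called 0 of 9 (6.41% of 8518 genes) and left 5 of the 9 without an adjusted p. Beside Bst2, the 14 macrophage and microglia markers had a median of 0.35 and 12 of 14 positive differences. Over all genes the median was -0.03, with 7010 of 15373 positive. Before adjustment, 4 of these markers were higher and 1 lower in cKO with p under 0.05, against 10.5% and 11% of all genes. Medians were higher for markers of lens (0.61), Mueller glia (0.56) and cornea (0.54). They were negative for lymphocytes (-0.60), erythroid cells (-1.43) and plasmacytoid dendritic cells (-0.12). Ptprc had 1.6 to 2.8 CPM in cKO and 3.29 to 5.52 CPM in WT. The part of any of these in the estimate of Bst2 was not tested.

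The last comparison asked whether the dark minus light difference depends on the genotype. edgeR called 0 of 9 (0% of all genes), limma-voom 0 of 9 and DESeq2 0 of 9 (0.354% of 12988 genes). At an unadjusted p under 0.05, Irf9 was smaller in cKO, as were 0.585% of all genes, and 0 of 9 were larger (4.71% of all genes). Irf7 had a dark minus light difference of 1.44 (SE 0.52) within cKO and 1.65 (SE 0.53) within WT, and these differed by -0.21 (SE 0.73). With errors of this size a difference of the genotypes was not detectable, and it is not shown that they act alike. Of the 9 estimates 6 were negative, with a median of -0.36 against 0.02 over all genes.

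**Figure D4:**
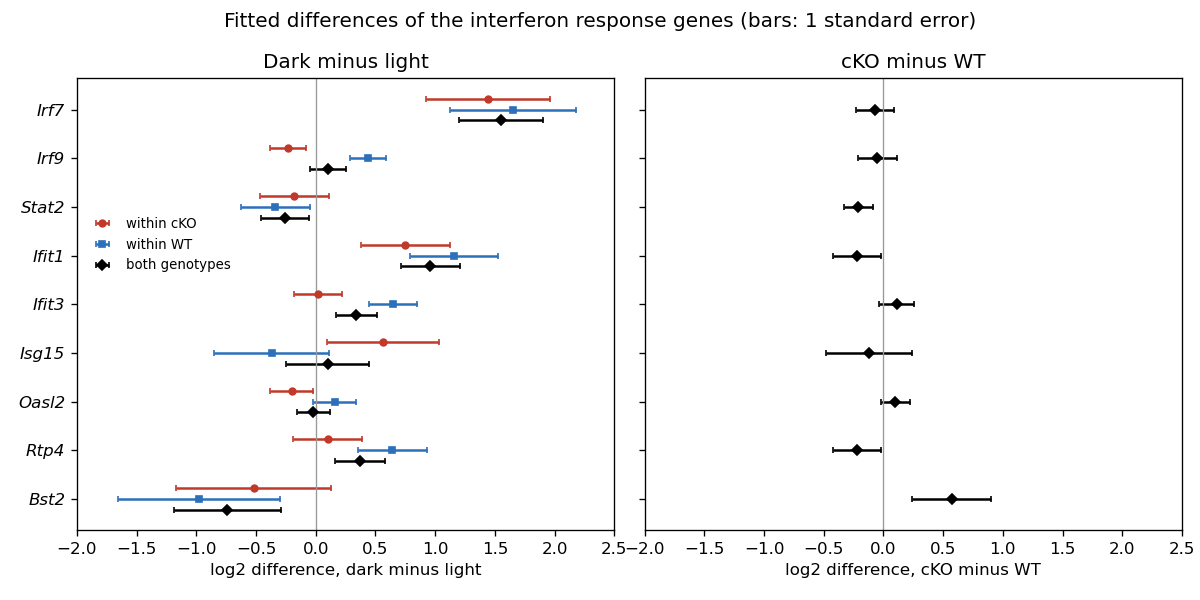
Left, log2 difference of dark minus light for each gene within cKO (red circles), within WT (blue squares) and over both genotypes (black diamonds). Right, log2 difference of cKO minus WT. Bars are 1 standard error of the fit. Irf7 (1.55) and Ifit1 (0.96) lie farthest to the right on the left panel, and Bst2 (0.57) on the right panel.

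The rest of the pathway was read from fixed lists. Of 17 type I interferon genes, the ligands, 13 had 0 counts in all 8 libraries, Ifnb1 among them, and the others had 1 (Ifna13), 3 (Ifna16), 4 (Ifnz) and 11 (Ifnk) counts in all. A count of 0 allows up to 3 counts, or 0.165 to 0.221 CPM in a cKO library and 0.183 to 0.237 CPM in a WT library. The 13 genes at 0 were thus not detectable at this depth, the other 4 were at very low counts, and 0 of the 17 could be tested.

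Of the 8 tested genes of the receptor, the kinases and the signal transducers, edgeR called 0 in the dark minus light comparison, and their median was -0.08. The receptor subunit Ifnar1 had 34.3, 23.1, 20.2 and 23.5 CPM in cKO and 39.5, 21.3, 19.2 and 18.3 CPM in WT at ZT3, ZT9, ZT15 and ZT21, a dark minus light difference of -0.55 (SE 0.21, unadjusted p 0.033, adjusted p 0.317). Its peak at ZT3 in both genotypes was shared with Stat2, with Jak1 and with 24.8% of all genes tested. The kinase Jak1 had a dark minus light difference of -0.13 (SE 0.11).

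Of 8 tested interferon regulatory factors, Irf7 alone was past an unadjusted p of 0.05 in edgeR for dark minus light, as were 15.5% of all genes. DESeq2 called Irf7 alone of the list, as it did 0.882% of the 14180 genes with an adjusted p. Irf2, which competes with activating factors, had a difference of 0.25 (SE 0.15). The median of the list was 0.09.

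Of 9 tested negative regulators, 8 had a positive dark minus light difference, as had 7299 of all 15373 genes. Their median was 0.34 against -0.02 over all genes, and edgeR called 0 (0% of all genes). Before adjustment, 1 was higher in the dark with p under 0.05 (5.1% of all genes) and 0 lower (10.4%). Socs3, a suppressor of cytokine signalling through the JAK kinases, had 5.29, 5.40, 7.43 and 7.07 CPM in cKO and 5.18, 6.63, 12.1 and 10.2 CPM in WT at ZT3, ZT9, ZT15 and ZT21. Its 4 dark libraries lay above its 4 light libraries, as in 2.68% of all genes (0.68, SE 0.16, adjusted p 0.317 in edgeR and 0.0557 in DESeq2). Usp18, the protease that removes Isg15 from proteins and restrains the receptor, had 3.69, 4.90, 5.30 and 4.67 CPM in cKO and 2.87, 4.66, 6.09 and 6.04 CPM in WT (0.45, SE 0.21, adjusted p 0.331). Ptpn11, a phosphatase, had a difference of -0.34 (SE 0.17).

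Of 14 tested nucleic acid sensors and adaptors, 5 had a positive and 9 a negative dark minus light difference, with a median of -0.11 and 0 calls. Ticam1, the adaptor of Tlr3, had a difference of 0.34 (SE 0.14), the kinase Tbk1 one of -0.33 (SE 0.16), and Tlr3, a receptor for double-stranded RNA, one of -0.33 (SE 0.19). Of 68 tested interferon-stimulated effectors, 32 had a positive and 36 a negative difference, with a median of -0.02, equal to that of all genes. Before adjustment, 5 of the 68 were higher and 8 lower in the dark with p under 0.05, against 5.1% and 10.4% of all genes. Neither edgeR (0% of all genes) nor DESeq2 (0.882%) called any of the 68. Ifit1 had the smallest p among them, followed by Trim25, a ubiquitin ligase (-0.56, SE 0.20), and the membrane protein Ifitm1 (-0.57, SE 0.20).

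In the genotype comparison edgeR called 0 of the 68 effectors, while before adjustment 7 were higher and 11 lower with p under 0.05, against 10.5% higher and 11% lower over all genes. DESeq2 left 50 of the 68 without an adjusted p and called 2 of the others, Lgals3bp and Ifitm1, named after their values were seen, where it called 6.41% of all genes with an adjusted p. Lgals3bp, a secreted glycoprotein, had 53.2, 41.8, 34.2 and 43.3 CPM in cKO and 43.1, 20.8, 21.3 and 24 CPM in WT at the 4 times (0.71, SE 0.13, adjusted p 0.157 in edgeR and 0.0058 in DESeq2). Ifitm1 had 54.7, 46.0, 41.1 and 40.1 CPM in cKO and 51.5, 29.6, 25.8 and 19.9 CPM in WT (0.60, SE 0.15, adjusted p 0.157 in edgeR and 0.0349 in DESeq2). Both were higher in cKO at 4 of 4 times (15.7% of all genes), which adds no support, since the call that named them used the same libraries. Both were also highest at ZT3 in both genotypes (24.8% of all genes), as were the marker sums of macrophages, endothelium and Mueller glia. The median over the 68 effectors was -0.06 and over all genes -0.03.

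The response to interferon gamma, a related cytokine with its own receptor, was read for comparison. Of its 19 tested genes edgeR called 0 in the dark minus light comparison, with a median of -0.04, and before adjustment p was under 0.05 for 0 higher and 4 lower genes, against 5.1% and 10.4% of all genes. H2-Aa, a class II antigen-presenting gene, had a difference of -0.66 (SE 0.20), and the receptor subunits Ifngr1 and Ifngr2 had -0.97 (SE 0.34) and -0.63 (SE 0.24). Of 7 tested genes of NF-kappa B and acute inflammation, edgeR called 0, with Tnfaip3 at -0.40 (SE 0.16), Vcam1 at 0.18 (SE 0.13) and Nfkbia at 0.53 (SE 0.38).

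**Figure D5:**
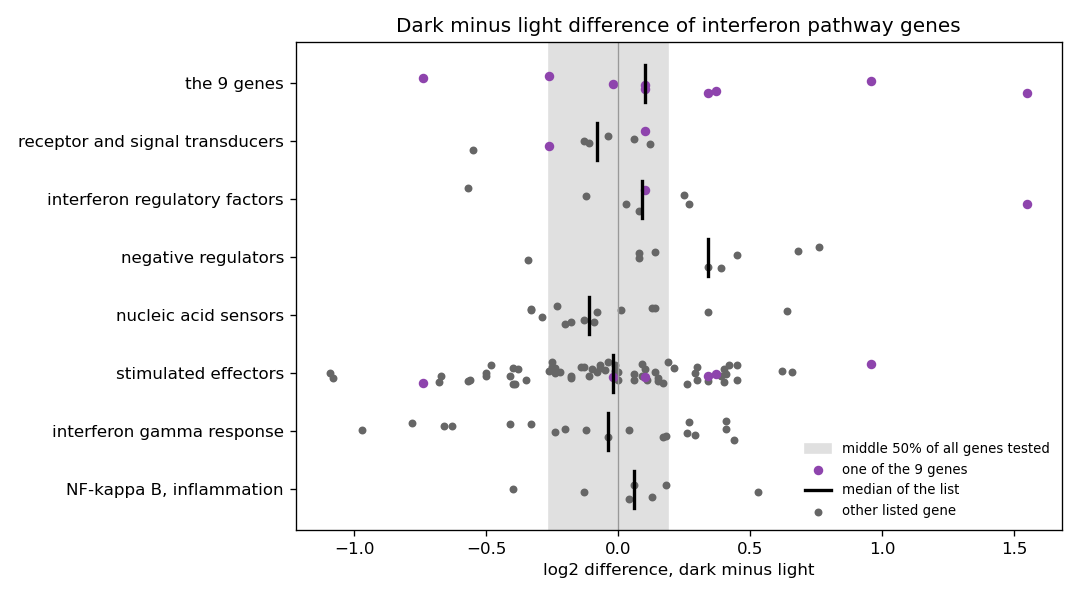
Log2 difference of dark minus light (horizontal axis) of each tested gene in 8 lists (rows), with the 9 genes in purple, other listed genes in dark grey, the median of each list as a black bar and the middle 50% of all genes tested as a grey band (spread within a row is for display). Irf7 at 1.55 stands at the right end of its row, and the median of the 68 effectors is -0.02.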

How the data were processed

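RNA of whole eyes was sequenced in 8 libraries, each a pool of 3 mice in equal amounts, per the labels' protocols. The authors deposited whole-number counts for each gene symbol, without normalization. Which aligner, counter, build, annotation and strand setting made them is not given in the sources used here. Of 32544 rows, 27 whose symbols had become dates (0.123 to 0.145% of counts) were left out.

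The tests ran under R 4.3.3, using edgeR 4.0.16 (scaling by TMM, filterByExpr by genotype, quasi-likelihood F test), DESeq2 1.42.0 and limma 3.58.1. CPM use TMM-adjusted totals. Standard errors are the size of the log2 difference over the square root of F. The models were genotype with time as a factor (3 residual degrees of freedom), phase with genotype (5), a cosine wave of 24 h with genotype (4), and phase by genotype (4). Alternatives were other scalings, no filter, other tools and leaving out libraries. The fits were checked on simulated counts. A pseudocount of 0.5 CPM was used for log2 levels in permutation tests and correlations.

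The 9 genes, the lists and the tests were chosen with earlier results of these data known. Named pathway genes are those called, else the 3 with the smallest p in dark minus light. Coordinates are from GENCODE M21, and promoter sequences are RefSeq's (GRCm38.p6). Some genes that this rule names, and the genes most like the mean level of the 9, are not reported here.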

Additional observations from a re-analysis of the deposited data

Results flagged for a closer look

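Within each genotype and each phase, the values of the 9 genes were examined for a library far from the other 3 of its group of 4, in 36 groups, of which 2 had one. Chance marks about 1 in 20 groups. Stat2 in WT had 25.4 CPM at ZT3 against 15.2 to 16.7 CPM at the other times, a gap of 0.856 of the range. In WT, Oasl2 had 13.3 CPM at ZT9, below the 17.3 to 17.6 CPM of the remaining libraries, a gap of 0.932 of the range.

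Irf9 had its dark libraries below its light libraries in cKO (13.4 and 13.6 against 15.6 and 16.1 CPM) and above them in WT (17.0 and 18.3 against 12.6 and 13.4 CPM). The dark minus light differences differed by -0.67 between cKO and WT (edgeR, unadjusted p 0.014, adjusted p 0.876). Over 19 alternatives the value ran from -0.75 to -0.59 and the adjusted p from 0.118 to 1.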

How the results depend on the processing

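Of all genes tested, edgeR called 0 in each comparison. Without the filter on low counts it called 7 by genotype, 7 in dark minus light and 3 in the wave. DESeq2 called 546, 125, 609 and 46 genes by genotype, in dark minus light, in the wave and in the difference between genotypes, and without independent filtering 410, 121, 547 and 37. Without both ZT9 libraries edgeR called 5831 genes in dark minus light, 1543 in the wave and 9 in the difference between genotypes. Without both ZT21 libraries it called 325 in the wave, and without both ZT3 libraries 1083 in the difference between genotypes. Leaving out 1 library gave 0 to 0 calls by genotype and in dark minus light, 0 to 1 in the wave and 0 to 496 in the difference between genotypes (496 without WT ZT3). The cause was not tested. Without both ZT9 libraries 5 of the 9 genes passed in dark minus light, Irf7 (1.15), Stat2 (-0.55), Ifit1 (1.37), Ifit3 (0.53) and Bst2 (-1.24). The light side is then ZT3 alone, so that fit sets ZT15 and ZT21 against ZT3 and does not stand for dark against light. Of all genes tested, 24.8% were highest and 26.9% lowest at ZT3 in both genotypes. On the strand of the gene alone, 2 promoters in place of 5 held the ISRE core.

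Signs turned as follows. By genotype, total counts gave -0.08 for Ifit3 (-0.07 in the permutation test) and -0.09 for Oasl2 (-0.09). Irf7 was 0.02 without both ZT3 and 0.02 without both ZT21, Ifit3 -0.02 without both ZT3, Isg15 0.24 without both ZT9, and Irf9 0.09 without both ZT15 and 0.06 without both ZT21. Leaving out 1 library gave -0.25 to 0.02 (Irf7), -0.03 to 0.25 (Ifit3), -0.44 to 0.25 (Isg15) and -0.16 to 0.10 (Irf9). In dark minus light, leaving out both ZT3 gave 0.12 for Stat2, 0.15 for Oasl2 and 0.12 for Bst2, and Isg15 was -0.07 without both ZT9 and -0.04 without both ZT15. Within cKO Irf9 was -0.23, and within WT Isg15 was -0.37 and Oasl2 0.16. Leaving out 1 library gave -0.13 to 0.05 (Oasl2) and -0.18 to 0.34 (Isg15), and total counts 0.00 for Oasl2 in the permutation test. In the difference between genotypes, Bst2 was -0.54 without both ZT3 and -0.35 without both ZT21, Irf7 0.07 without both ZT9 and Stat2 -0.09 without both ZT21. Leaving out 1 library gave -0.29 to 0.49 (Stat2), -1.14 to 0.06 (Ifit1), -0.96 to 1.14 (Bst2) and -1.17 to 0.33 (Irf7).

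The genotype fit was paired by time, since time was a factor in it and sets the cKO and WT libraries of one time against each other. Without that factor edgeR again called 0 genes, and 1905 in place of 3311 had p under 0.05 before adjustment. Counts of 13 to 26 limit Isg15 most. With 1 pool per genotype and time, variation between mice and between pools cannot be told apart.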
